A study of Homo sapiens with 24 samples.

Results

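Insulin and the insulin-like growth factors signal through a small set of proteins: the growth factor IGF2, the receptor tyrosine kinases IGF1R and INSR, the scavenging receptor IGF2R, secreted binding proteins that hold the growth factors outside the cell, and adaptor proteins that dock on the activated receptors. In liver, this pathway controls glucose and lipid metabolism, and IGFBP1 is a classical hepatic output of it. The IGF2BP proteins, which bind RNA and influence mRNA decay, are named for their binding to IGF2 mRNA. Here the mRNAs of 10 members were followed by name, of 58676 gene rows in the series: the ligand IGF2, the receptors IGF1R, INSR and IGF2R, the binding proteins IGFBP1, IGFBP2 and IGFBP4, and the adaptors IRS1, IRS2 and GRB10. The count filter (a CPM, the read count scaled to library size, of at least 1 in 2 or more libraries) left 13136 genes and 9 of the 10 members. IRS2 did not pass.

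The cells were HepG2, an established human liver cancer line, which received either a negative control siRNA, called siControl, or an siRNA to 1 member of the IGF2BP family, called siIGF2BP1, siIGF2BP2 and siIGF2BP3 after its target. All groups, controls included, are labelled with actinomycin D, an inhibitor of transcription, at 5 µg/ml, given for 0, 3 or 6 h before collection. The 4 conditions at 3 times form 12 groups of 2 libraries, and the 0 h groups had no time in the drug. Transfected plates were divided among the time points after transfection, so the times of 1 siRNA are not independent transfections. The labels do not say whether replicates came from separate cultures, so p-values measure only the spread between these libraries, which may be technical.

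Libraries held between 31843248 and 74252042 gene reads, and the synthetic ERCC spike-in took 50889 to 119088 reads. As a check of the labels, the targeted mRNAs at 0 h stood at 20.9% (IGF2BP1), 26.1% (IGF2BP2) and 35.4% (IGF2BP3) of siControl in their own knockdown. The 9 hepatocyte markers listed summed to 66298 to 98239 CPM, against 7.45 to 16.1 CPM for 11 markers of blood, endothelial and stromal cells. Of these LUM was at 0 in every library and 9 averaged under 1 CPM. The others were PDGFRB, with a mean of 8.83 CPM, and CD14, with 1.39 CPM. Of 12 transcripts listed as short-lived, 12 fell over 6 h in siControl, where 80.3% of all genes tested did. Their median log2 change was -4.78, beside -0.88 over all genes. The siControl 0 h replicate 2 library stood apart in its spike-in share, with 666 gene reads per ERCC read, against 762 in replicate 1 and 703 to 775 in the 6 knockdown libraries at 0 h.

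Part of the decay of an mRNA is read from words in its 3′ untranslated region. ATTTA, the core of AU-rich elements, and the longer TTATTTATT are known from many short-lived mRNAs. Both words were counted on the transcript strand, overlapping copies included, in the canonical transcript of each member (GENCODE release 44, hg38), and any TTATTTATT also holds an ATTTA. The following windows of 30 bases are shown because they carry the TTATTTATT of IGFBP1, a pair of overlapping ATTTA copies of IRS1, the member that was lost fastest, and the single ATTTA of IGF2, which was not lost. Capitals mark the word, and T stands for U. In IRS1 they mark the first copy of the pair, and the second begins at its last base.
IGFBP1 (chr7:45893233-45893262, plus strand): agaaagctgtTTATTTATTcactgtaagtt
IRS1 (chr2:226733079-226733108, minus strand): cggaaactttatATTTAtttactgcaggtg
IGF2 (chr11:2130436-2130465, minus strand): ctgccccccgccATTTAtcgccctgattgg

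IGFBP1 was the only member with a TTATTTATT. Its 3′ untranslated region of 569 bases held 5 copies of ATTTA, and of 930 regions within 10% of its length 3.01% held as many and 2.80% held a TTATTTATT. The 3′ region of IRS1 held 13 copies in 4960 bases, that of IRS2 11 in 3609, that of IGF1R 12 in 7088 and that of INSR 10 in 4791. Of regions of like length, 41.7% held as many as IRS1, 30.2% as IRS2, 69.5% as IGF1R and 55.2% as INSR. IGF2R held 4 copies in 6420 bases, GRB10 4 in 2884, and IGF2 (3870 bases), IGFBP2 (332 bases) and IGFBP4 (1142 bases) held 1 copy each. Over all 19229 regions, 67.8% held an ATTTA and 8.50% a TTATTTATT. These matches describe the letters and show no binding.

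Levels between genes were compared as RPKM, the read count scaled to library size and exon length, in siControl at 0 h. IGF2 was highest, with 120 and 122 RPKM in the 2 libraries. IGFBP1 followed with 42.4 and 32.5, then IGF2R with 25.4 and 25.3. IGF1R (7.46 and 7.35), INSR (6.08 and 6.05), IGFBP4 (5.78 and 6.13) and IRS1 (4.93 and 5.27) came next. In this order INSR and IGFBP4 overlapped, and the other neighbours did not. Exon length here joins the exons of all annotated transcripts of a gene. For IGF2R it was 22613 bases, against 14061 in the canonical transcript, and for IGFBP1 1642 against 1514. The order, that of IGFBP1 and IGF2R included, depends on the length used, and an order by canonical transcripts was not computed. GRB10 had 1.89 and 1.83, IGFBP2 0.199 and 0.148, and IRS2 0.0257 and 0.0182. HepG2 thus held abundant mRNA for the ligand and little for the adaptor IRS2, whose counts ran from 0 to 22 reads per library.

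Before transcription was stopped, IGF2, INSR and IRS1 were higher and IGFBP1 was lower in siIGF2BP1 than in siControl. In siIGF2BP3 IGF2 was higher and IGFBP1 and IGF2R were lower, and in siIGF2BP2 IGF2 alone was called, with a small rise. These 3 comparisons share the same siControl libraries. In the edgeR quasi-likelihood test, 4 of 9 members passed an adjusted p of 0.05 in siIGF2BP1, where 15.9% of all genes tested did. In siIGF2BP2 it was 1 of 9, beside 12.1% of all genes, and in siIGF2BP3 3 of 9, beside 9.39%. The median log2 difference of the 9 members was 0.01, 0.04 and -0.00, beside 0.01, 0.02 and 0.00 over all genes. In bulk samples, fewer cells of a type and less RNA per cell cannot be told apart.

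**Figure D1:**
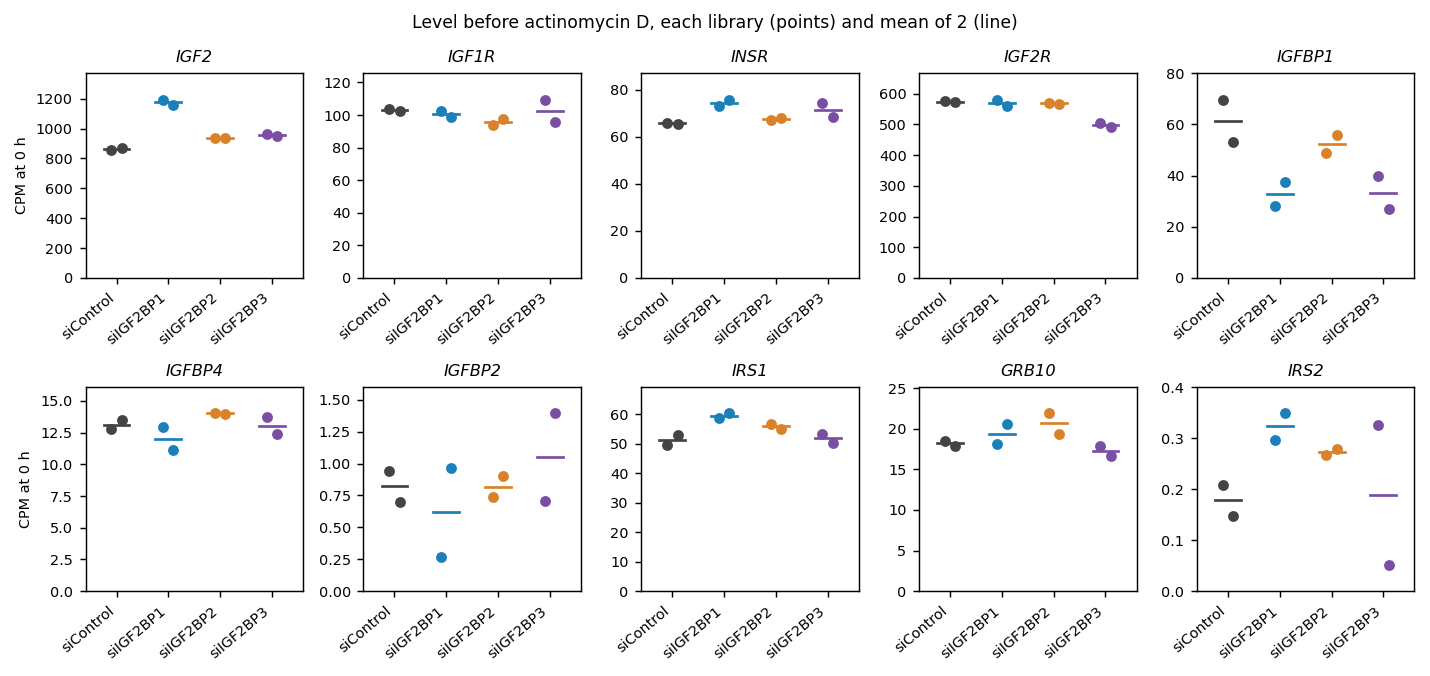
Level of each member at 0 h in CPM (linear axes from 0), with 1 point per library and a line at the mean of 2, for siControl and the 3 knockdowns. IGF2 is above siControl in all 6 knockdown libraries, IGFBP1 is lowest in siIGF2BP1 and siIGF2BP3, and IGF2R is lowest in siIGF2BP3, at 504 and 491 CPM.

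IGF2 (ENSG00000167244.19, chr11:2129112-2158391, minus strand) encodes the fetal growth factor that gives the IGF2BP family its name. It was at 857 and 873 CPM in siControl, 1192 and 1161 in siIGF2BP1, 939 and 935 in siIGF2BP2, and 966 and 951 in siIGF2BP3. No knockdown library overlapped the controls, and the siIGF2BP1 libraries stood above those of the other knockdowns. The log2 difference was 0.46 (SE 0.040, a fold of 1.38, edgeR adjusted p = 1.72e-11) in siIGF2BP1. It was 0.15 (SE 0.040, edgeR adjusted p = 0.00871) in siIGF2BP3 and 0.12 (SE 0.039, edgeR adjusted p = 0.0339) in siIGF2BP2. The siIGF2BP1 rise passed in 11 of 11 alternative fits, the siIGF2BP3 rise in 7 of 11 and the siIGF2BP2 rise in 3 of 11. The siIGF2BP2 rise missed the threshold without any 1 of its 4 libraries (log2 differences of 0.11 to 0.13, adjusted p up to 0.210). The siIGF2BP3 rise missed it without siControl replicate 1 or siIGF2BP3 replicate 1 (log2 differences of 0.14 to 0.16 without 1 library, adjusted p up to 0.106). ERCC scaling ended both calls, with larger differences of 0.20 in siIGF2BP2 and 0.23 in siIGF2BP3, and so did DESeq2, with 0.11 and 0.15. Of the exon bases of IGF2, 43.2% are shared with 3 other genes on the same strand in the annotation. The readthrough gene INS-IGF2, one of them, was at 0 CPM in every library. IGF2-AS, on the other strand, averaged 1.19 CPM. How the counting treated shared bases is not given in the sources used here, and its part in the level of IGF2 was not tested.

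The IGF2 rise was larger in siIGF2BP1 than in the other knockdowns by the contrast of the knockdowns themselves, in the fit whose spread is estimated from all 24 libraries. IGF2 was lower in siIGF2BP2 than in siIGF2BP1 by a log2 difference of -0.34 (SE 0.040, edgeR adjusted p = 1.90e-08), and in siIGF2BP3 by -0.31 (SE 0.040, edgeR adjusted p = 2.58e-07). Between siIGF2BP3 and siIGF2BP2 the difference was 0.03, with a 95% interval of -0.05 to 0.11. In these comparisons 3 members passed between siIGF2BP2 and siIGF2BP1 (18.7% of all genes), 3 between siIGF2BP3 and siIGF2BP1 (14.3%), and 2 between siIGF2BP3 and siIGF2BP2 (9.19%). With ERCC scaling the difference between siIGF2BP3 and siIGF2BP1 was -0.20 and missed the threshold (adjusted p = 0.115).

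Among the receptors, INSR, the insulin receptor (ENSG00000171105.13, chr19:7112255-7294414, minus strand), was at 65.9 and 65.5 CPM in siControl and at 73.0 and 75.6 in siIGF2BP1. Its log2 difference was 0.20 (SE 0.051, edgeR adjusted p = 0.00542). In siIGF2BP2 INSR was at 67.1 and 67.8 CPM and in siIGF2BP3 at 74.3 and 68.2, and neither passed (adjusted p = 0.686 and 0.146). The siIGF2BP1 rise missed the threshold without siControl replicate 2 or siIGF2BP1 replicate 2 (log2 differences of 0.16 to 0.23 without 1 library, adjusted p up to 0.0915) and with ERCC scaling (a difference of 0.16, SE 0.092, adjusted p = 0.425). INSR was lower in siIGF2BP2 than in siIGF2BP1 by a log2 difference of -0.15 (SE 0.051, edgeR adjusted p = 0.0332), which held in 4 of 11 alternative fits and in none that left out 1 of the 4 libraries (-0.19 to -0.12).

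IGF2R (ENSG00000197081.13, chr6:159969082-160113507, plus strand), which takes up IGF2 for degradation in lysosomes and also carries lysosomal enzymes, was at 575 and 572 CPM in siControl, 580 and 560 in siIGF2BP1, 571 and 567 in siIGF2BP2, and 504 and 491 in siIGF2BP3. The siIGF2BP3 libraries lay below the other 6. The siIGF2BP1 libraries overlapped both siControl and siIGF2BP2, and those of siIGF2BP2 lay just below siControl. The log2 difference from siControl was -0.20 (SE 0.028, a fold of 0.870, edgeR adjusted p = 2.46e-06). It was -0.21 (SE 0.028, edgeR adjusted p = 5.97e-07) from siIGF2BP1 and -0.20 (SE 0.028, edgeR adjusted p = 2.34e-06) from siIGF2BP2. All 3 held in 10 of 11 alternative fits, the exception being ERCC scaling, where the difference from siControl was -0.12 (adjusted p = 0.482). In siIGF2BP1 and siIGF2BP2 the differences from siControl were 0.01 (95% interval -0.05 to 0.07) and -0.00 (-0.06 to 0.05).

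IGF1R, the type 1 IGF receptor (ENSG00000140443.14, chr15:98648539-98964530, plus strand), was at 104 and 102 CPM in siControl. It was at 103 and 98.6 CPM in siIGF2BP1, 94.0 and 97.3 in siIGF2BP2, and 109 and 95.5 in siIGF2BP3. The siIGF2BP2 libraries lay below the controls and the others overlapped them, and no difference passed (log2 differences of -0.02, -0.10 and -0.00, adjusted p of 0.883, 0.200 and 0.978). In a fit of only the 4 libraries compared, the siIGF2BP2 difference was -0.12 and passed (edgeR adjusted p = 0.0154).

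IGFBP1 showed the largest differences among the members called. The gene (ENSG00000146678.9, chr7:45888360-45893660, plus strand) encodes a secreted IGF-binding protein that insulin represses in liver. It was at 69.6 and 53.3 CPM in siControl, 28.0 and 37.4 in siIGF2BP1, 48.8 and 55.8 in siIGF2BP2, and 39.6 and 27.0 in siIGF2BP3. All 4 libraries of siIGF2BP1 and siIGF2BP3 lay below all 4 of siControl and siIGF2BP2, which overlapped each other. Replicates of this mRNA differed more than those of the receptors. The log2 difference was -0.91 (SE 0.129, a fold of 0.534, edgeR adjusted p = 1.59e-06) in siIGF2BP1 and -0.86 (SE 0.129, a fold of 0.550, edgeR adjusted p = 8.68e-06) in siIGF2BP3. Both held in 11 of 11 alternative fits, with ranges of -1.12 to -0.69 and -1.18 to -0.63 across them. In siIGF2BP2 it was -0.22 (95% interval -0.48 to 0.03, adjusted p = 0.294). That fall passed in 2 of 11 alternative fits, both at -0.24. These were no filter (edgeR adjusted p = 0.0156) and only the 4 libraries compared (edgeR adjusted p = 0.00520).

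The difference of IGFBP1 between knockdowns was also tested directly. It was higher in siIGF2BP2 than in siIGF2BP1 by 0.68 on the log2 scale (SE 0.130, edgeR adjusted p = 1.42e-04) and lower in siIGF2BP3 than in siIGF2BP2 by a log2 difference of -0.64 (SE 0.130, edgeR adjusted p = 6.53e-04). The latter was -0.40 without siIGF2BP3 replicate 2 and missed the threshold (adjusted p = 0.101). Between siIGF2BP3 and siIGF2BP1 the difference was 0.04, with a 95% interval of -0.23 to 0.31. In CPM after actinomycin D, given as values with no test, siIGF2BP1 and siIGF2BP3 again had the lowest means. At 3 h IGFBP1 was at 29.1 ± 1.23 CPM (SD, n = 2) in siControl and 33.4 ± 0.213 in siIGF2BP2, against 16.1 ± 0.230 in siIGF2BP1 and 24.1 ± 2.60 in siIGF2BP3. At 6 h it was at 22.7 ± 3.91 and 24.5 ± 5.46 CPM, against 11.9 ± 0.511 and 15.8 ± 1.78.

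IGFBP4 and IGFBP2, the other secreted binding proteins, did not pass in any knockdown. IGFBP4 (ENSG00000141753.6, chr17:40443450-40457725, plus strand) was at 12.7 and 13.5 CPM in siControl and between 11.1 and 14.0 in the 6 knockdown libraries. Its log2 differences ran from -0.10 in siIGF2BP1 to 0.10 in siIGF2BP2. IGFBP2 (ENSG00000115457.9, chr2:216632828-216664436, plus strand) was near the filter, with 15 to 100 reads per library. Its 95% intervals were wide, from -1.52 to 0.45 in siIGF2BP1, -0.91 to 0.93 in siIGF2BP2 and -0.58 to 1.25 in siIGF2BP3.

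Among the adaptors, IRS1, the main substrate that couples both receptor kinases to PI3K (ENSG00000169047.5, chr2:226731312-226799820, minus strand), was at 49.4 and 52.8 CPM in siControl and 58.7 and 60.3 in siIGF2BP1. The log2 difference was 0.24 (SE 0.067, edgeR adjusted p = 0.0113), with no overlap between the groups. It missed the threshold without siControl replicate 1 or siIGF2BP1 replicate 2 (log2 differences of 0.19 to 0.28 without 1 library, adjusted p up to 0.165) and with ERCC scaling (a difference of 0.21, SE 0.10, adjusted p = 0.299). IRS1 was at 56.8 and 55.0 CPM in siIGF2BP2 and at 53.4 and 50.3 in siIGF2BP3, and neither passed (adjusted p = 0.219 and 0.90). It was lower in siIGF2BP3 than in siIGF2BP1 by a log2 difference of -0.21 (SE 0.068, edgeR adjusted p = 0.0296), a call that each of the 4 fits without 1 library lost (-0.25 to -0.17). GRB10, an adaptor that restrains receptor signalling (ENSG00000106070.18, chr7:50590063-50793462, minus strand), lay between 16.6 and 21.9 CPM over the 8 libraries and passed in none. IRS2 (ENSG00000185950.8, chr13:109752695-109786583, minus strand), a close relative of IRS1, lay between 0.051 and 0.349 CPM and was not tested.

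**Figure D2:**
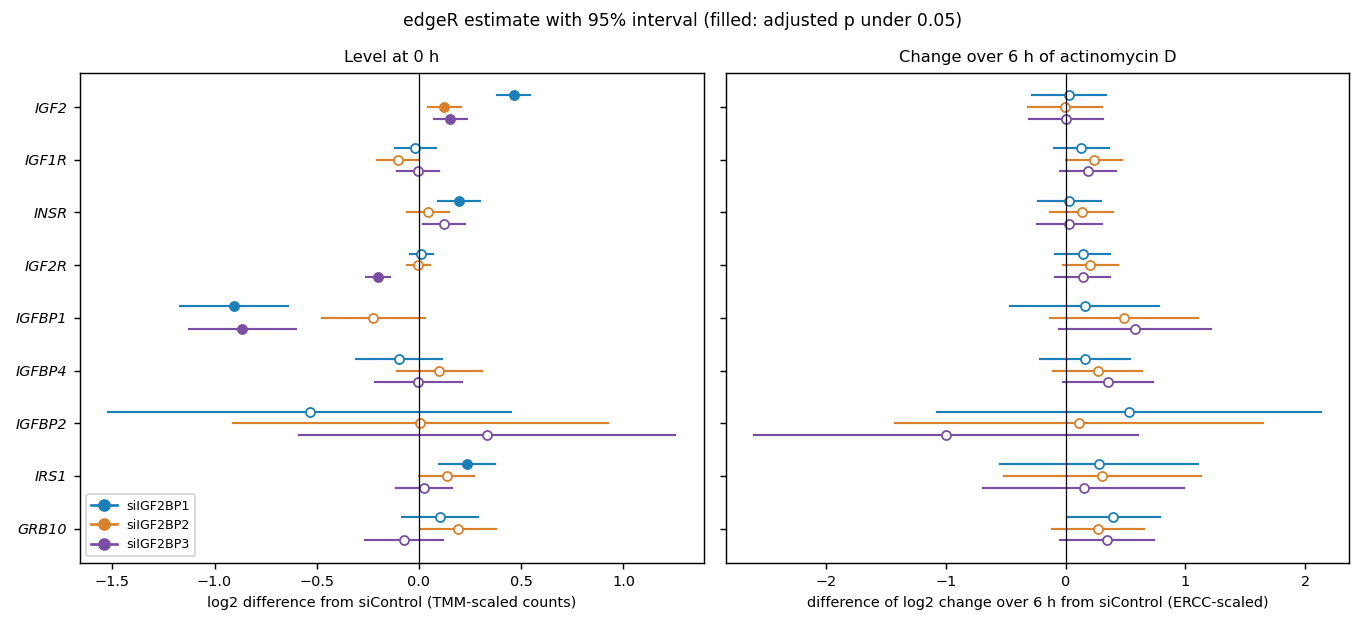
edgeR log2 difference from siControl with its 95% interval for the 9 members tested, at 0 h on the left and as the difference of the log2 change over 6 h on the right, with filled points where the adjusted p is under 0.05. On the left 8 points are filled, led by IGFBP1 at -0.91 and IGF2 at 0.46 in siIGF2BP1, and on the right none is.

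After actinomycin D the members ranged from short-lived to long-lived mRNAs. Counts were scaled by the ERCC reads, and each slope below is a log2 change across the 6 h. The spike-in was added per mass of total RNA, so the scale follows the share of polyadenylated RNA in total RNA. In siControl, 6 of 9 members fell by the edgeR test, where 80.3% of all genes tested did, and the median slope was -1.1 over the members and -0.88 over all genes. IRS1 fell by 3.56 (SE 0.293, edgeR adjusted p = 2.83e-10), IGFBP1 by 2.0 (SE 0.212, edgeR adjusted p = 1.66e-08) and INSR by 1.43 (SE 0.091, edgeR adjusted p = 4.53e-12) on this log2 scale. GRB10 fell by 1.29, IGF1R by 1.1, and IGF2R by 0.36 (SE 0.078, edgeR adjusted p = 2.18e-04), though IGF2R had a log2 change of 0.51 with TMM scaling, which moves the all-gene median to -0.02. IGFBP4 changed by a log2 value of -0.15 (adjusted p = 0.280), IGFBP2 by 0.12 (0.834) and IGF2 by 0.21 (0.0730), and none of these passed. For IGF2, 5 of 14 alternatives passed, with log2 changes of 0.33 without siControl 6 h replicate 2, 0.21 with no filter, 0.21 in the 0 h to 6 h change, 1.07 with TMM and 0.75 with library-size scaling.

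**Figure D3:**
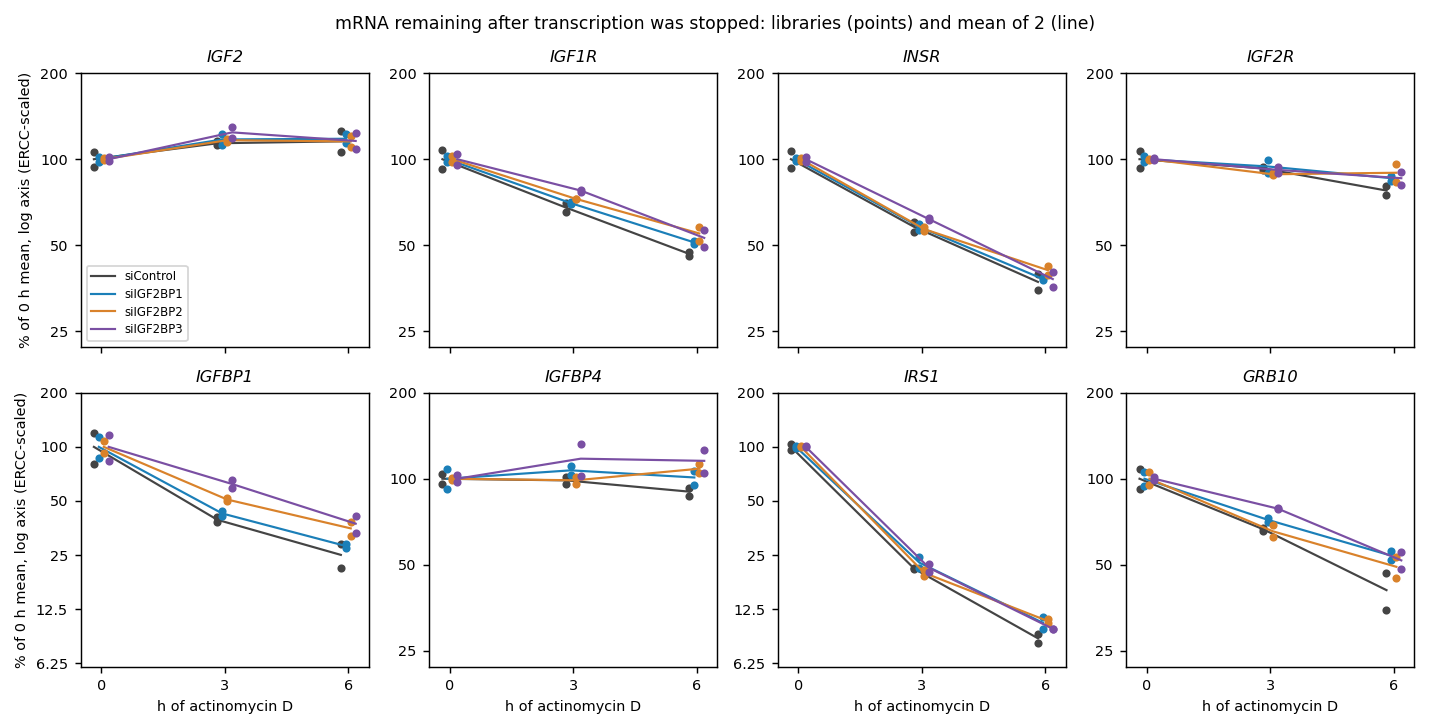
Percent of the 0 h mean remaining at 0, 3 and 6 h of actinomycin D, ERCC-scaled, on a log axis, with 1 point per library and lines through the means of 2, for 8 members and 4 conditions (IGFBP2, with few reads, is not drawn). IRS1 means drop to between 8.61% and 10.7% at 6 h, IGF2 means lie above 100% at 3 and 6 h, and the IGFBP1 lines lie apart, with siControl lowest at 25.1% and siIGF2BP3 highest at 37.4%.

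IRS1 mRNA was the shortest-lived member. In siControl 20.8% and 21.1% of the 0 h mean remained at 3 h, and 9.15% and 8.07% at 6 h. Its half-lifetime, from first-order decay averaged over both times, was 1.49 h in siControl. The knockdowns had values of 1.59, 1.52 and 1.53 h, in the order siIGF2BP1, siIGF2BP2, siIGF2BP3, which is kept below. Leaving out any 1 library gave 1.47 to 1.52 h in siControl and 1.55 to 1.64 h in siIGF2BP1. Of the genes with a half-lifetime in siControl, 5.31% had a shorter one than IRS1, and the median over all genes was 6.22 h.

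IGFBP1 mRNA was the next shortest. In siControl 40.6% and 38.0% remained at 3 h and 29% and 21.2% at 6 h. In siIGF2BP3 65.2% and 59.1% remained at 3 h and 41.5% and 33.3% at 6 h. The half-lifetime was 2.56 h in siControl against 2.80, 3.48 and 4.30 h in the knockdowns, with ranges without 1 library of 2.19 to 3.21 h, 2.47 to 3.29 h, 3.19 to 3.85 h and 3.47 to 6.00 h. The ranges of siControl and siIGF2BP3 did not overlap, while those of neighbours in this order did. Such ranges are not error intervals, and the share of all genes with such a gap was not computed. The slope difference from siControl was 0.58 in siIGF2BP3 (95% interval -0.05 to 1.21, edgeR adjusted p = 0.332), 0.49 in siIGF2BP2 (-0.13 to 1.1, adjusted p = 0.643) and 0.16 in siIGF2BP1 (-0.46 to 0.78, adjusted p = 0.814). None passed. In the alternative that compared the 6 h with the 0 h libraries and did not use 3 h, the siIGF2BP3 difference passed (edgeR adjusted p = 0.0208).

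INSR, GRB10 and IGF1R had intermediate lifetimes. INSR had a half-lifetime of 3.99 h in siControl and of 4.04, 4.11 and 4.30 h in the knockdowns, all inside the siControl range of 3.64 to 4.46 h. GRB10 had 4.86 h in siControl (4.27 to 5.71 h without 1 library), then 6.48, 5.34 and 7.29 h. IGF1R had 5.39 h in siControl (4.73 to 6.33 h), then 6.03, 6.72 and 7.30 h (6.55 to 8.29 h for the last). The ranges without 1 library lay above that of siControl for GRB10 in siIGF2BP3 (6.86 to 7.75 h) and for IGF1R in siIGF2BP3. Those of GRB10 in siIGF2BP1 (5.72 to 7.53 h) and IGF1R in siIGF2BP2 (6.33 to 7.18 h) began where siControl ended. These ranges are not error intervals, and the share of all genes with ranges placed like this was not computed. No slope difference of GRB10 or IGF1R from siControl passed (edgeR adjusted p of 0.339 or more). A log-linear fit turned the order of the knockdowns. By that fit GRB10 was at 6.71 h with IGF2BP1 depleted against 6.30 h with IGF2BP3 depleted, and IGF1R at 6.93 h with IGF2BP2 depleted against 6.54 h with IGF2BP3 depleted. The medians over genes with a half-lifetime were 6.91, 6.51 and 6.98 h in the knockdowns, also above siControl. They leave out 1830, 1168 and 1954 of 12179 genes that did not fall, against 1140 in siControl. The medians thus cover different genes in each condition.

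IGF2R, IGFBP4 and IGF2 were long-lived on this scale. IGF2R had a half-lifetime of 20.8 h in siControl, but 13.8 h without siControl 0 h replicate 2 and 44.8 h without replicate 1, with 80.5% and 74.8% still remaining at 6 h. The values of 30.8, 23.6 and 25.5 h in the knockdowns lay within that range, and that of siIGF2BP1 was 48.0 h without its 3 h replicate 2. IGFBP4 had a value of 63.7 h in siControl (34.4 h without 0 h replicate 2 and 557 h without 0 h replicate 1) and none in the knockdowns, where the rate averaged over both times was not a loss. IGF2 had none in any condition: in siControl 112% and 115% of the 0 h mean were present at 3 h and 125% and 106% at 6 h. Scaled to all gene reads by TMM instead, IGF2 stood at 219% and 201% at 6 h, and IGF2R at 141% and 143%. IGFBP2 had a value in siIGF2BP3 alone, 8.13 h, from 15 to 80 reads per library.

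No member passed for a difference of slope between a knockdown and siControl. Over all genes, 0.0152% passed in siIGF2BP1, 0% in siIGF2BP2 and 0.0228% in siIGF2BP3. At an unadjusted p under 0.05, edgeR had 1 member in siIGF2BP1 (GRB10, a log2 difference of 0.40), 1 in siIGF2BP2 (IGF1R, 0.24) and 0 in siIGF2BP3, beside 10.9%, 6.82% and 16.1% of all genes. DESeq2 called 0 in all 3. For 9, 8 and 8 of the 9 members the difference was positive, toward slower loss, with medians of 0.16, 0.24 and 0.15, beside 0.19, 0.17 and 0.22 over all genes. The share of all genes with a positive difference was not computed. These signs also depended on the fit. In siIGF2BP1 the lowest value over the alternative fits was negative for every member but GRB10 (0.21) and IRS1 (0.04). With TMM scaling, the all-gene medians were -0.01, -0.02 and -0.01. For IGF2 the differences were 0.03, -0.00 and 0.00, and the widest of their intervals ran from -0.31 to 0.31. Without siControl 0 h replicate 2, 540 genes passed in siIGF2BP3 instead of 3 and 12 in siIGF2BP1 instead of 2, and still 0 members.

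**Figure D4:**
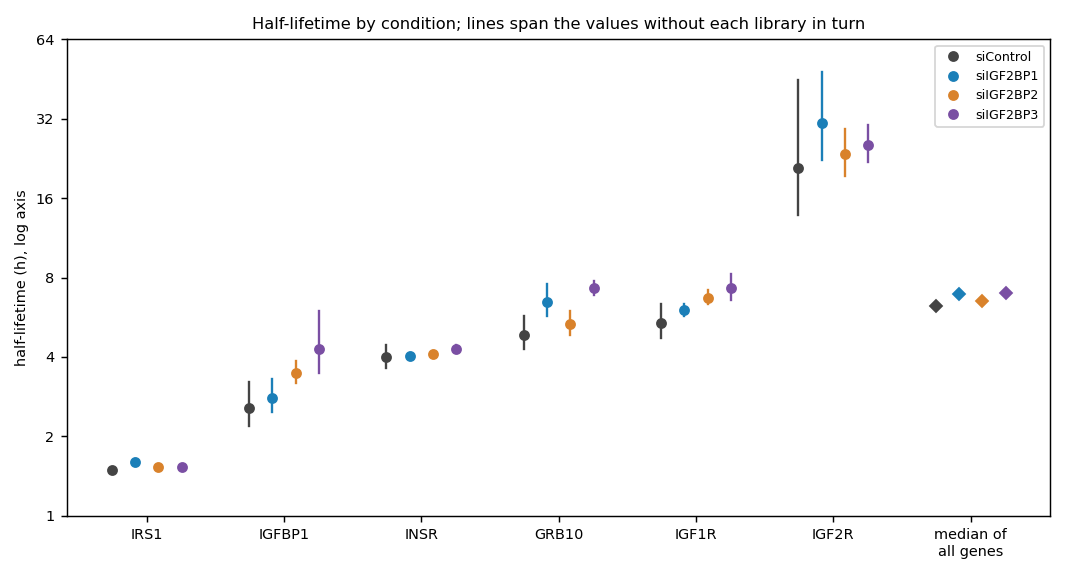
Half-lifetime in h (log axis) of the 6 members that fell, in 4 conditions, with lines from the lowest to the highest value when 1 library is left out. Diamonds mark the median of the genes that had a half-lifetime in that condition. IRS1 lies between 1.49 and 1.59 h, IGFBP1, GRB10 and IGF1R have their highest points in siIGF2BP3, an order that a log-linear fit turns for GRB10 and IGF1R, and the lines of IGF2R overlap.

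Other genes of the pathway were followed as a list of 64, of which 47 passed the count filter. At 0 h 3 rose and 3 fell in siIGF2BP1, 3 rose and 4 fell in siIGF2BP2, and 2 rose in siIGF2BP3, by edgeR over all genes. These are 12.8%, 14.9% and 4.26% of the list, beside 15.9%, 12.1% and 9.39% of all genes. The list medians were 0.01, 0.01 and -0.01, beside 0.01, 0.02 and 0.00 over all genes. GRB2, the adaptor that links receptors to RAS, rose in each knockdown, by log2 differences of 0.40, 0.29 and 0.40, from 125 and 129 CPM in siControl to between 154 and 170 CPM. GRB7, of the same adaptor family as GRB10, rose by 0.34 in siIGF2BP2 and 0.38 in siIGF2BP3, and RPS6KB2, an S6 kinase, by 0.17 in siIGF2BP1. The RPS6KB2 rise was lost without siControl replicate 1 or either siIGF2BP1 library (0.12 to 0.19), and with ERCC or library-size scaling (0.15 and 0.16). Both GRB7 rises were lost without siControl replicate 1 (0.23 and 0.28), and that in siIGF2BP3 also without its replicate 1 (0.33).

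PPARGC1A, a coactivator of gluconeogenic genes, fell by 0.40 and TSC2, an inhibitor of mTORC1, by 0.24 on the log2 scale in siIGF2BP1. Without siControl replicate 1 these were -0.33 and -0.19 and missed the threshold, as did TSC2 with ERCC scaling (-0.27, adjusted p = 0.0575) and PPARGC1A without siIGF2BP1 replicate 2 (-0.38). In siIGF2BP2, AKT1S1, an mTORC1 subunit phosphorylated by AKT, fell by 0.73 (SE 0.051, edgeR adjusted p = 8.05e-14), from 62.2 and 60.2 CPM to 38.0 and 35.3. PTPN1, the phosphatase that acts on the insulin receptor, fell by 0.31 (with ERCC scaling -0.23, adjusted p = 0.106), and IGFBP6, a binding protein with a mean of 1.01 CPM, also passed. Over 6 h in siControl 43 of the 47 fell (91.5%, beside 80.3% of all genes), with a list median of -1.19, and 0 passed for a slope difference in any knockdown (8, 6 and 11 at an unadjusted p under 0.05 in edgeR, or 17%, 12.8% and 23.4% beside the all-gene shares above).

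Genes whose levels moved most like IGF2 over the 24 libraries were ranked by Pearson correlation of TMM-scaled log2 CPM among 9744 genes. The highest were DUSP9, a phosphatase of MAP kinases (0.987), CYP2W1, a cytochrome P450 (0.982), and GM2A, a lysosomal lipid-binding protein (0.980). Those most like IGFBP1 were ENSG00000272502 (0.919), TM4SF1, a membrane protein (0.918), and INSIG2, which holds back SREBP activation (0.905). The points share the time course, the libraries and their depth.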

How the data were processed

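RNA of 24 HepG2 libraries was sequenced. The deposited values are raw read counts per gene (not normalized), which the authors made with Trimmomatic 0.39, HISAT2 2.1.0 on hg38 and HTSeq on GENCODE. Overlap and strand settings of the counting are not given in the sources used here. Libraries held 31843248 to 74252042 gene reads. HTSeq summary rows (13.551% to 17.064% of reads) name no gene and were left out, as were 45 Y-copy pseudoautosomal rows. Symbols matched 58207 rows.

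Groups came from the labels. The 13136 genes at 1 CPM or more in 2 libraries were tested by edgeR 4.0.16 (quasi-likelihood, two-sided, Benjamini-Hochberg over all genes, threshold 0.05): 12 group means with TMM for levels, and an intercept and slope per condition with ERCC scaling for decay, with 12 and 16 residual degrees of freedom. Printed CPM use gene reads alone as library size. Half-lifetime is ln2/K, with K the average of the first-order rates from 0 to 3 h and from 0 to 6 h on ERCC-scaled means. Fits were run on simulated data, where the slope fit used the simulated library sizes and ERCC scaling was not tried. DESeq2 1.42.0 and other alternatives are in the closing section.

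The members and lists were chosen with earlier results of these data known. Pathway genes named are the 3 largest rises and falls passing the threshold with a mean CPM of at least 5, plus IGFBP6, chosen after its values were seen. Some genes that this rule names are not reported here.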

Additional observations from a re-analysis of the deposited data

Results flagged for a closer look

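These results are listed because 2 knockdowns differed from each other by the edgeR test of the difference itself (log2 difference at 0 h, adjusted over all genes). Between siIGF2BP2 and siIGF2BP1, IGFBP1 differed by 0.68, IGF2 by -0.34 and INSR by -0.15. Between siIGF2BP3 and siIGF2BP1, IGF2 differed by -0.31, IRS1 by -0.21 and IGF2R by -0.21. Between siIGF2BP3 and siIGF2BP2, IGFBP1 differed by -0.64 and IGF2R by -0.20. The INSR and IRS1 differences were lost without any 1 of their 4 libraries, and the IGFBP1 difference between siIGF2BP3 and siIGF2BP2 without siIGF2BP3 replicate 2. In these fits every IGF2 and IGF2R difference held without each library.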

How the results depend on the processing

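Of 140 recomputed counts of members called, 124 stayed within 1.5 times. Many of these were slope-difference counts of 0, which could hardly change, since at most 3 genes passed in those main fits. The pooled share therefore says little of the counts at 0 h, which are given next. At 0 h, siIGF2BP1 called 4 members, 2 with ERCC scaling and 2 to 4 without 1 library (2 without siIGF2BP1 replicate 2). siIGF2BP2 called 1, 0 with ERCC or library-size scaling, the CPM 5 filter, DESeq2 or any 1 library left out (0 to 0), 2 with no filter and 3 in a fit of only the 4 libraries. siIGF2BP3 called 3, 1 with ERCC scaling. Between siIGF2BP3 and siIGF2BP1 it was 3 and 0 with ERCC scaling, and between siIGF2BP3 and siIGF2BP2 2 and 1. The slope difference in siIGF2BP3 called 0, and 1 (IGFBP1) in the 0 h to 6 h change. In siControl, IGF2R reversed from -0.36 to 0.51 with TMM and 0.19 with library-size scaling, and IGFBP4 from -0.15 to 0.72 and 0.40. Under the same scalings the median over all genes moved from -0.88 to -0.02 and -0.34, and the cause was not tested. Under TMM, IGF2R in every condition and IGFBP4 in siControl had no half-lifetime. Of the values that remained 21 of 21 moved, IRS1 in siControl to 1.92 h and IGF1R to 27.0 h.

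Over all genes with ERCC scaling, 649 genes passed in siIGF2BP1 (253 higher) against 2093 (1239 higher), 732 in siIGF2BP2 (563 higher) against 1593 (874 higher) and 471 in siIGF2BP3 (388 higher) against 1234 (647 higher). Between knockdowns it was 1585 (1347 higher) against 2455 (1188 higher), 875 (777 higher) against 1879 (788 higher), and 382 against 1207. The all-gene medians with ERCC scaling reached 0.12 at most. Library-size scaling gave 1005 higher and 1038 lower in siIGF2BP1, and no filter 567 higher and 701 lower in siIGF2BP2. Without 1 library 586 to 1641 passed. In siControl 33 rose and 10551 fell, with TMM 4773 and 5085, and with library-size scaling 2761 and 6871. Slope differences reached 86, 72 and 195 genes in the 0 h to 6 h change, and 9, 22 and 12 with no filter.

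Replicate numbers showed little pairing of the libraries: over 66 group pairs the correlation of deviations ran from -0.0415 to 0.103. Between times of siIGF2BP3 it was 0.079, 0.065 and 0.089, and between times of the other conditions -0.022 to 0.025. Low correlations cannot show that the libraries of 1 number were unpaired. With replicate number as a block, the members called were 4, 1 and 3 at 0 h, 3, 3 and 2 between knockdowns, 6 for siControl loss and 0 for slope differences, and 2181, 1683 and 1316 genes passed at 0 h. Counts under about 100 reads (IGFBP2, IRS2) limit precision. ERCC scaling used siControl libraries with unequal spike-in shares.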

Other observations

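AKT1S1 and PTPN1 were lower in siIGF2BP2 than in the other knockdowns, by edgeR over all genes. AKT1S1, the mTORC1 subunit, differed from siIGF2BP1 by a log2 value of -0.83 (adjusted p = 1.98e-15) and was higher in siIGF2BP3 than in siIGF2BP2 by 0.63 (adjusted p = 1.23e-11). PTPN1, the insulin receptor phosphatase, differed by -0.43 (adjusted p = 4.62e-09) and 0.42 (adjusted p = 1.08e-08). PPARGC1A was higher in siIGF2BP2 and siIGF2BP3 than in siIGF2BP1, by 0.41 (adjusted p = 0.00668) and 0.51 (adjusted p = 0.00111).

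IGF2-AS, transcribed across IGF2 from the other strand, fell by 2.43 on the log2 scale over 6 h in siControl (edgeR adjusted p = 1.06e-07), while IGF2 did not pass. H19, the imprinted neighbour of IGF2, averaged 0.338 CPM. Among short-lived genes of the pathway in siControl, FOXO1, a transcription factor restrained by insulin, fell by 4.75, PIK3R1, the regulatory PI3K subunit, by 4.36, and TRIB3, an inhibitor of AKT, by 4.30 on the log2 scale. TSC2, EIF4EBP1 and RPS6KB2 had log2 changes of -0.18, -0.05 and 0.12 and did not pass. These genes were chosen after their values were seen.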
